A study of Mus musculus with 9 samples.

Results

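The genes described here encode the D-type cyclins (Ccnd1, Ccnd2, Ccnd3), their kinase partners (Cdk4, Cdk6), inhibitors of these kinases (Cdkn1a, Cdkn1b, Cdkn2c, Cdkn2d) and the antiproliferative cofactor Btg2. They were chosen by name, as probe sets with a single gene symbol on the array. All 10 had 1 probe set each, out of 22180 genes with a probe set, and all 10 were among the 13012 genes bright enough to be tested. The study hybridised RNA from wild-type CD1 mouse cortical cells to 9 Affymetrix whole-transcript arrays, with 3 arrays per culture type. The neuron cultures came from embryonic day 16 and grew for 5 days (another label gives 4 days). The precursor cultures came from embryonic day 13 and grew for 1 day. For the co-culture, such precursors were plated onto neurons already grown for 4 days, and both were harvested 1 day later. The neuron and precursor groups therefore differ in age and in time in culture as well as in cell type. The labels call the arrays of a group biological replicates 1 to 3, so p-values measure the spread between these cultures.

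D-type cyclins are made in response to mitogens and bind CDK4 or CDK6. These kinases phosphorylate the retinoblastoma protein RB, which releases E2F transcription factors and lets a cell pass from G1 into S phase. INK4 proteins, such as p18 (Cdkn2c) and p19 (Cdkn2d), block CDK4 and CDK6 directly, while p21 (Cdkn1a) and p27 (Cdkn1b) act on several cyclin-CDK complexes. In the embryonic cortex, cyclin D1 and cyclin D2 are found in dividing precursors, p27 and p19 are linked to the arrest of neurons, and Btg2 (Tis21) marks precursors that divide to make neurons.

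Sequences just before the annotated start were read for the members, to show which known motifs these regions carry. RefSeq (GRCm38.p6) entries were found for 8 of the 10 genes, and the 250 bases before each start were searched on both strands. Shown, because they held a match to a motif marked below, are Cdk4 (chr10:127063285-127063534, plus strand), Cdk6 (chr5:3343643-3343892, plus strand), Btg2 (chr1:134079156-134079405, minus strand) and the first of 2 listed starts of Cdkn1a (chr17:29090729-29090978, plus strand). The CCAAT box and the GC box GGGCGG were also searched but are not marked. They occur in 33.8% and 32.7% of all regions, and in regions of members not shown. Capitals mark the E-box CACGTG, a motif bound by MYC and related factors, the cyclic AMP response element TGACGTCA, and the p53 response element.
Cdk4: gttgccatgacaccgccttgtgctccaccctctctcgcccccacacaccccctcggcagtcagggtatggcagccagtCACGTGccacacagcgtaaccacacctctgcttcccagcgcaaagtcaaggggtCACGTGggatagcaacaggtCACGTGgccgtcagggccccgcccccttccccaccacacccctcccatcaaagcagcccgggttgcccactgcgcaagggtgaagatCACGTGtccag
Cdk6: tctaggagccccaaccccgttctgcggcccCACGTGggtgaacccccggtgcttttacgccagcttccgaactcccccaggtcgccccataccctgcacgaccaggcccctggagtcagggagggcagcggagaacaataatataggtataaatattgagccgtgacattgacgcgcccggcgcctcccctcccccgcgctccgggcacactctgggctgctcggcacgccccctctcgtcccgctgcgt
Btg2: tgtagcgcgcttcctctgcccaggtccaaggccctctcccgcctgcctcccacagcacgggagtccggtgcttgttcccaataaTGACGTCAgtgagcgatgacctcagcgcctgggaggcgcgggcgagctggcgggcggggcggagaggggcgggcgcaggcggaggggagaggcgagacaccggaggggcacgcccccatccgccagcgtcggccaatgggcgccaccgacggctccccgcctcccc
Cdkn1a: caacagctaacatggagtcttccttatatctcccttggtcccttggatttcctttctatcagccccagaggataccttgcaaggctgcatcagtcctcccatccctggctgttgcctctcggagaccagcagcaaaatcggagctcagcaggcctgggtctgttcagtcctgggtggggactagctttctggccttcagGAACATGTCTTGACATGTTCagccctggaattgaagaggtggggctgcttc
The Cdk4 region held 4 E-boxes, which began 172, 118, 98 and 11 bases before the start, and the Cdk6 region held 1, 220 bases before it. Of 32851 regions of this length, 6.02% held at least 1 E-box and 0.0213% held at least 4. Btg2 had a cyclic AMP response element 166 bases before its start, which 1.55% of regions hold. The Cdkn1a region had a p53 response element (2 adjoining half-sites, 1 mismatch allowed in 20 letters) 51 bases before this start, found in 25 of all regions. The E-box, the cyclic AMP response element and the p53 element were found in none of the regions of Ccnd3, Cdkn1b, Cdkn2c and Cdkn2d, nor before the other Cdkn1a start, so these matches were not shared by all members that differed between cultures. None of the members' regions held the E2F motifs TTTGGCGC, TTTCGCGC, TTTCCCGC or TTTGCCGC, or the CHR motif TTTGAA, which 1.86% and 16% of all regions hold. These matches describe letters in the windows and not binding.

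Levels are log2 values after RMA, a method that corrects background, equalises the arrays and summarises the probes of a gene. They can be compared between arrays for 1 gene but not between genes. The arrays' medians lay between 6.75 and 6.79, and arrays of a group correlated at 0.988 or above. Most markers fitted the labels. All 7 measured genes of cycling cells and all 10 of radial precursors were lower in neurons than in precursors, and 9 of 10 neuron markers were higher. The exception was Tubb3, at 11.95 in neurons and 11.96 in precursors (adjusted p = 0.880, limma). Dcx and Map2 were only 1.23-fold and 1.24-fold higher in neurons, so these neuron markers stood nearly as high in the precursor cultures. The part of neurons in the precursor arrays was not tested. The log2 of the summed level of neuron markers was 14.91 to 14.98 in neurons, 14.01 to 14.03 in precursors and 14.33 to 14.34 in the co-culture. In bulk RNA, fewer cells of a type and less RNA per cell cannot be told apart.

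The first comparison asked how the cyclin-CDK genes and their inhibitors differ between neurons and precursors. All 3 D cyclins and both kinases were lower in neurons, as were Cdkn2c and Btg2. Cdkn1a was higher in neurons, and Cdkn1b and Cdkn2d did not pass the test. Thus 7 of 10 were lower and 1 higher, beside 35.2% lower and 28% higher among all tested genes (limma, adjusted p under 0.05), or 63.1% in either direction. Neuron and precursor arrays did not overlap for 8 of 10 members, beside 66.4% of all tested genes. The members' median log2 difference was -0.93, and that of all tested genes was -0.02.

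**Figure D1:**
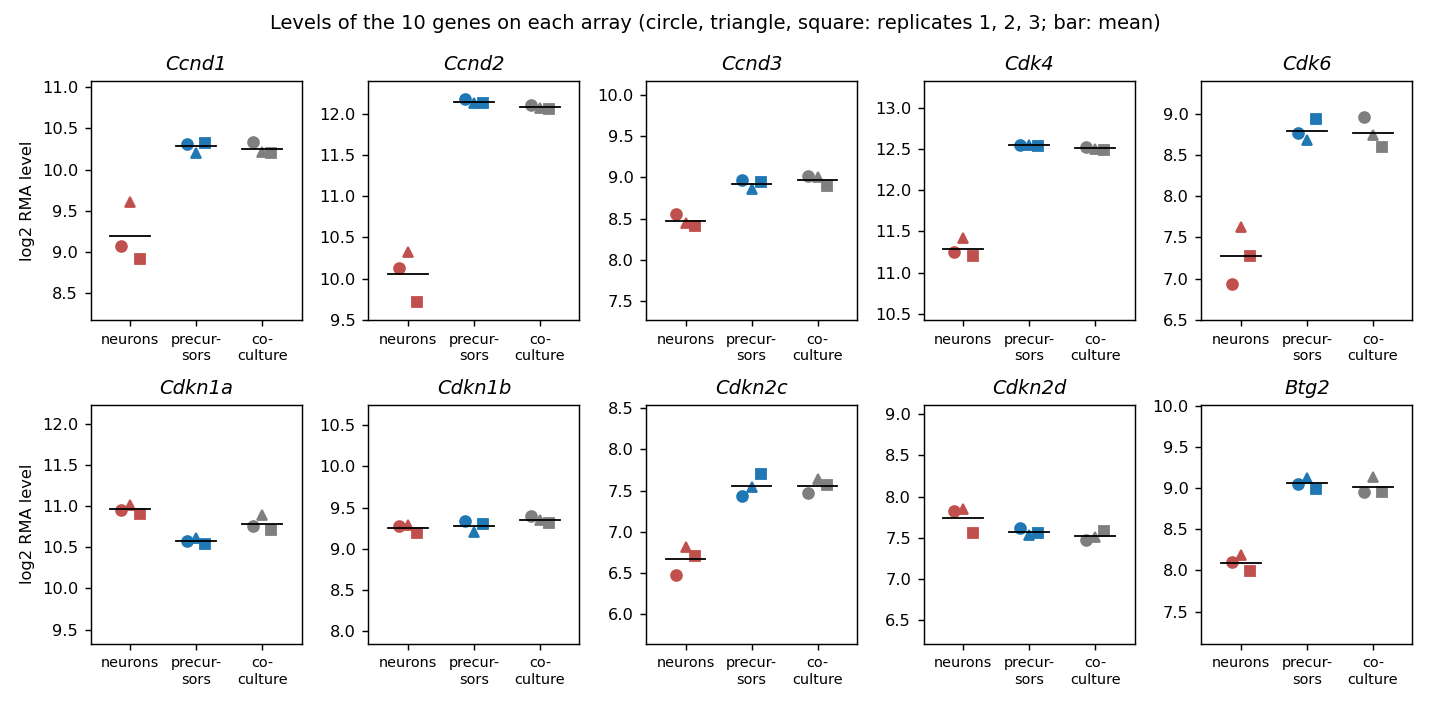
Log2 RMA level (y axis, each panel spanning the same range of log2 units) of each of the 10 genes on every array, by culture (x axis); symbols mark replicates 1 to 3 and bars the group means. Neuron arrays lie below all precursor and co-culture arrays for the 3 D cyclins, Cdk4, Cdk6, Cdkn2c and Btg2, and above them for Cdkn1a.

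Ccnd2, the D cyclin with the largest difference here, stood at 10.12, 10.33 and 9.71 in neurons, at 12.18, 12.13 and 12.13 in precursors and at 12.11, 12.08 and 12.06 in the co-culture. The neuron arrays lay far below the others and spread more widely than they did. Group means were 10.06 ± 0.31 (neurons, SD, n = 3) and 12.15 ± 0.031 (precursors), 4.27-fold apart (log2 difference -2.09, SE 0.12, adjusted p = 3.42e-07, limma). Ccnd1 encodes cyclin D1, whose level follows mitogen signals. Its levels were 9.07, 9.60 and 8.92 in neurons, 10.31, 10.21 and 10.33 in precursors, and 10.33, 10.21 and 10.20 in the co-culture. Neurons were lowest on every array, 2.13-fold below precursors on average (log2 difference -1.09, SE 0.15, adjusted p = 0.000102, limma), with replicate 2 closest to the precursor level. Ccnd3, the third D cyclin, which is made in many tissues, changed least of the 3. It was at 8.56, 8.45 and 8.42 in neurons, 8.97, 8.86 and 8.94 in precursors and 9.02, 9.0 and 8.90 in the co-culture. These groups did not overlap either, but the fold was 1.36 (log2 difference -0.45, SE 0.057, adjusted p = 7.61e-05, limma).

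Cdk4, the kinase partner of the D cyclins, had the least spread of the 10 genes among precursor arrays, with levels of 12.54, 12.55 and 12.54. It was at 11.25, 11.42 and 11.20 in neurons and 12.53, 12.50 and 12.49 in the co-culture. Neurons were 2.39-fold below precursors (log2 difference -1.26, SE 0.057, adjusted p = 5.33e-08, limma). Cdk6, the second kinase partner, spread more between arrays. Its levels were 6.93, 7.62 and 7.27 in neurons, 8.76, 8.68 and 8.94 in precursors and 8.96, 8.74 and 8.60 in the co-culture. Even the highest neuron array lay below the lowest of the others, and the mean difference was 2.87-fold (log2 difference -1.52, SE 0.16, adjusted p = 1.89e-05, limma).

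The 4 inhibitors did not move together. Cdkn2c, the INK4 inhibitor p18, was lower in neurons like the cyclins: 6.48, 6.81 and 6.71 against 7.44, 7.54 and 7.71 in precursors (1.86-fold, adjusted p = 2.09e-05, limma). On neuron replicates 1 and 3 Cdkn2c lay below the lowest array median, 6.75. It met the level filter because of its precursor and co-culture arrays, which limits what its fold and p can show. Its co-culture arrays, at 7.48, 7.64 and 7.57, fell within the precursor range. Cdkn1a, which encodes p21, was the member that passed as higher in neurons. It was at 10.96, 11.02 and 10.90 in neurons and 10.57, 10.61 and 10.54 in precursors, a 1.31-fold difference (log2 difference 0.38, SE 0.057, adjusted p = 0.000201, limma). The co-culture arrays, at 10.75, 10.89 and 10.70, lay between both separate cultures without overlapping either.

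Cdkn1b, which encodes p27, had nearly equal levels: 9.28, 9.29 and 9.20 in neurons, 9.34, 9.21 and 9.30 in precursors and 9.40, 9.35 and 9.31 in the co-culture. Neuron and precursor arrays overlapped, with a log2 difference of -0.03 (95% interval -0.14 to 0.09, adjusted p = 0.691, limma), so a change of the size seen for Ccnd3 lies outside the interval. The sign of this difference turned positive with cyclic loess (0.07). Cdkn2d, which encodes the INK4 inhibitor p19, was at 7.82, 7.85 and 7.55 in neurons and 7.62, 7.53 and 7.56 in precursors, while the co-culture arrays read 7.47, 7.51 and 7.58. Neuron replicate 3 lay inside the precursor range while the other neuron arrays lay above it. The log2 difference was 0.17 (95% interval -0.0015 to 0.35, adjusted p = 0.0779, limma), and it passed without neuron replicate 3 (0.27, adjusted p = 0.0022).

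Btg2, a cofactor of mRNA deadenylation that restrains proliferation, was lower in neurons. It stood at 8.10, 8.19 and 7.99 in neurons, 9.05, 9.12 and 8.99 in precursors and 8.95, 9.13 and 8.95 in the co-culture. Neuron arrays lay well apart from the rest, and the difference from precursors was 1.95-fold (log2 difference -0.96, SE 0.071, adjusted p = 1.45e-06, limma). The intermediate progenitor markers, whose cells also express Btg2, were lower in neurons in 4 of 4 cases, with Eomes 2.41-fold, Neurog2 1.96-fold and Neurog1 1.70-fold lower.

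**Figure D2:**
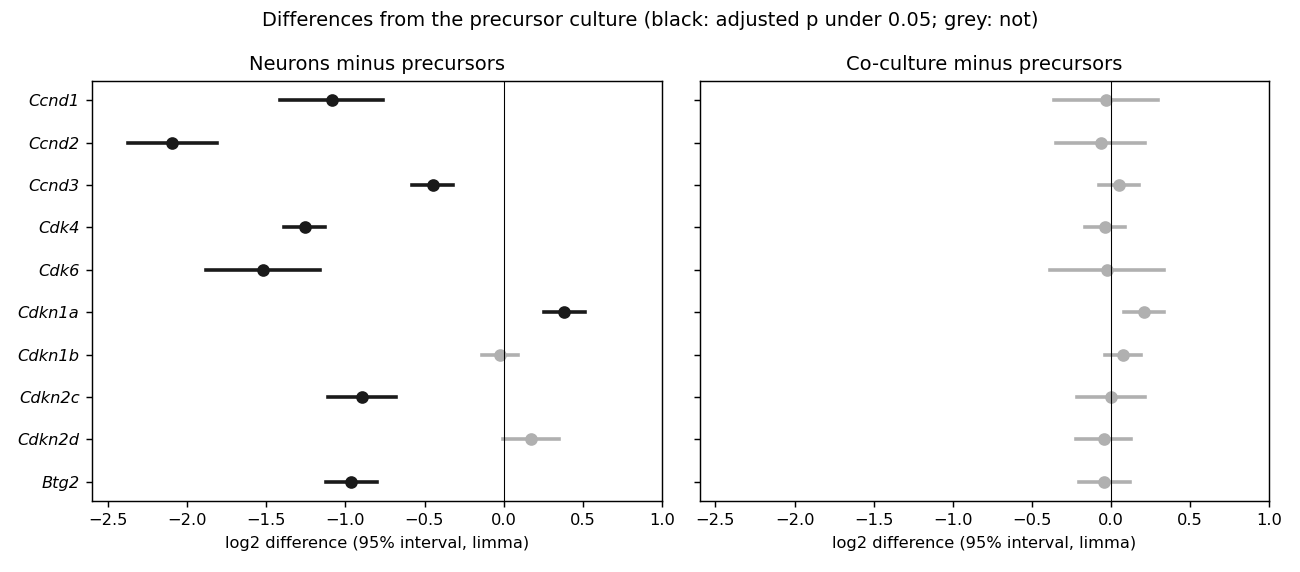
Log2 differences of each gene (x axis) in neurons and in the co-culture from precursors, with 95% intervals from limma that are not adjusted for the number of genes; black marks adjusted p under 0.05. In neurons 8 of 10 genes passed, from -2.09 for Ccnd2 to 0.38 for Cdkn1a; in the co-culture 0 of 10 did.

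Among neuron arrays, replicate 2 was highest for 9 of the 10 genes, all but Ccnd3. The 9 included Cdkn1a and Cdkn2d, whose means were higher in neurons than in precursors. The share of all tested genes highest on replicate 2 was not computed, so a general shift of this array cannot be judged. The same array had the highest summed level of cycling-cell markers, at 10.18 on the log2 scale against 9.83 and 9.78, and of radial precursor markers, at 13.48 against 13.31 and 13.26. For intermediate progenitor markers it was instead the lowest, at 9.20 against 9.53 and 9.59. On every neuron array the cycling-cell and radial precursor sums lay below the precursor ranges of 12.55 to 12.62 and 14.30 to 14.39. The proliferation marker Mki67 read 7.12, 7.60 and 7.22 on the 3 neuron arrays. The part of these cells in the spread was not tested. Without neuron replicate 2, the neuron minus precursor difference was -1.29 for Ccnd1, -2.23 for Ccnd2, -1.69 for Cdk6 and -1.32 for Cdk4, and each passed (limma, adjusted p = 4.64e-07, 1.91e-07, 4.94e-06 and 3.22e-08). The median SD of the 10 genes was 0.14 for neurons, 0.064 for precursors and 0.070 for the co-culture. Over all tested genes it was 0.083, 0.066 and 0.055.

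Ratios of members within an array show whether they differed unequally, though not which of them moved. Across 6 pairs, exact two-sided permutation tests of 3 neuron against 3 precursor arrays can give no p below 0.10 (0.12 after adjustment over the 6 pairs). The log2 ratio of Ccnd1 over Ccnd2 was -0.86 ± 0.17 (SD, n = 3) in neurons and -1.87 ± 0.064 in precursors, and its arrays did not overlap (exact p = 0.10). Ccnd2 over Ccnd3 was 1.58 ± 0.29 in neurons and 3.22 ± 0.049 in precursors, the largest of these differences. On every neuron array Ccnd2 was thus lower relative to Ccnd1 and to Ccnd3 than on any precursor array. Ccnd1 over Ccnd3 differed by -0.64, with neuron replicate 2 at 1.15 and the other neuron arrays at 0.51 and 0.50. It was -0.86 without neuron replicate 2.

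The inhibitor pairs also stood apart between the cultures. Cdkn2c over Cdkn2d was -1.08 ± 0.25 (SD, n = 3) in neurons against -0.0096 ± 0.17 for precursors, a difference of -1.07. Both inhibitor pairs had exact permutation p = 0.10 and neuron and precursor arrays that did not overlap. Cdkn1a over Cdkn1b was higher in neurons, at 1.70 ± 0.028 against 1.29 ± 0.095. In the co-culture this ratio was 1.35, 1.54 and 1.39, with replicate 2 nearer to the neuron mean than to the precursor mean. For the kinases, Cdk4 over Cdk6 overlapped between cultures, at 4.32, 3.79 and 3.92 in neurons and 3.78, 3.87 and 3.60 in precursors (exact p = 0.20).

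**Figure D3:**
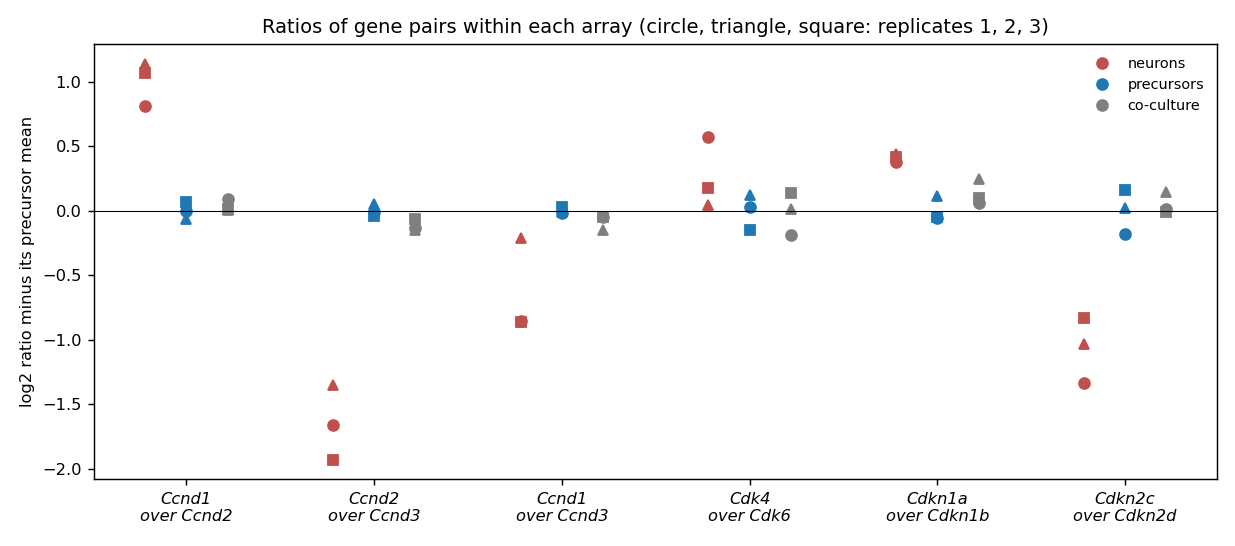
Log2 ratio of 6 gene pairs within each array, minus the precursor mean of that ratio (y axis), for neurons, precursors and the co-culture; symbols mark replicates 1 to 3. Neuron arrays are apart from the others for all pairs except Cdk4 over Cdk6, and the co-culture arrays lie nearer to the precursor than to the neuron mean, except replicate 2 for Cdkn1a over Cdkn1b and replicate 3 for Cdk4 over Cdk6.

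The co-culture was then compared with precursors alone, the comparison that bears on what neurons change around precursors. Neuron RNA is part of the co-culture sample, and this comparison shares its precursor arrays with the first one. None of the 10 genes passed (limma, adjusted p under 0.05; 1 at an unadjusted p under 0.05), beside 8.42% of all tested genes. Of all genes 1069 (8.22%) were higher than in precursors, and 676 without co-culture replicate 2. The D cyclins differed by -0.03 for Ccnd1 (95% interval -0.36 to 0.29), -0.07 for Ccnd2 (-0.35 to 0.21) and 0.05 for Ccnd3 (-0.079 to 0.18). The kinases differed by -0.04 for Cdk4 (95% interval -0.17 to 0.09) and -0.03 for Cdk6 (-0.39 to 0.33). For Ccnd1, Ccnd2, Cdk4 and Cdk6 a fall of the size seen in neurons thus lay outside the interval.

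Among the inhibitors, Cdkn1a was nearest to passing. Its co-culture arrays were all above its precursor arrays, a 1.15-fold difference (log2 difference 0.21, SE 0.057, adjusted p = 0.0564, limma). This main fit leaves out the pairing of precursor and co-culture arrays. With the replicate number as a block, Cdkn1a passed (adjusted p = 0.0280, limma). That block was set on all 9 arrays, though the numbers do not pair neurons, so it is not a paired test of these 2 groups alone. Over its 18 alternatives the adjusted p of Cdkn1a ran from 0.0140 to 0.206, the last without co-culture replicate 2 (difference 0.15). That array had the highest Cdkn1a of the 3, and also the highest summed pericyte and fibroblast markers, at 10.48 against 9.999 and 9.84 on the log2 scale, and endothelial markers, at 9.94 against 9.59 and 9.51. Their part in the Cdkn1a level was not tested. Cdkn1b differed by 0.07 (95% interval -0.041 to 0.19), Cdkn2c by 0.00063 (-0.21 to 0.22) and Cdkn2d by -0.05 (-0.22 to 0.13). Btg2 differed by -0.04 (-0.20 to 0.12). Arrays of both cultures did not overlap for 3 of 10 genes, Cdkn1a being higher and Ccnd2 and Cdk4 lower in the co-culture, beside 24.8% of all tested genes.

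Against neurons alone, 7 of 10 genes were higher in the co-culture and 2 lower, beside 35.7% higher and 24.9% lower among all tested genes (60.6% in either direction). Arrays of these cultures did not overlap for 9 of 10 members, all but Cdkn2d, beside 65.4% of all tested genes. The 7 were the D cyclins, both kinases, Cdkn2c and Btg2, from 1.41-fold for Ccnd3 to 4.07-fold for Ccnd2. The lower ones had small differences. Cdkn1a was lower by -0.18 (adjusted p = 0.0213, limma), but not past the threshold without neuron replicate 2 (0.0611), co-culture replicate 1 (0.0698) or co-culture replicate 3 (0.0819). Cdkn2d was lower by -0.22 (adjusted p = 0.0319). It did not pass without neuron replicate 1 (0.106) or 2 (0.0981), without co-culture replicate 1 (0.0986) or 2 (0.0805), without the filter on dim genes (0.0559) or with only these 6 arrays in the fit (0.0614). Cdkn1b was higher by 0.10 with no overlap of the arrays, at adjusted p = 0.122, and by 0.0024 with cyclic loess (adjusted p = 0.971).

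To set the co-culture beside a plain mixture of both cultures, each level was predicted from the neuron and precursor means on the linear scale. The neuron share was 16.6% ± 1.11 (SD, n = 3), taken from genes at least 4-fold apart between the separate cultures other than the 10 members. The 105 genes higher in neurons gave 22.6% ± 1.18 and the 108 genes higher in precursors gave 10.7% ± 2.27. No member departed from its prediction (limma, adjusted p under 0.05; 1 at an unadjusted p under 0.05), beside 0.392% of all tested genes (0.361% above it). Departures ran from -0.08 for Cdkn2d to 0.14 for Cdk6, and 9 of 10 lay above 0, with a median of 0.11 beside 0.03 for all tested genes. The share of all tested genes above 0 was not computed. The 16.6% used lies above the share from genes higher in precursors and below that from genes higher in neurons. This tends to place genes that differ between the separate cultures above 0. All 7 cycling-cell markers also lay above 0, with a median of 0.12, so these departures are not particular to the members. Ccnd2, for example, was predicted at 11.95 and measured at 12.08 ± 0.026 (SD, n = 3), a departure of 0.13 (SE 0.12, adjusted p = 0.802), and Cdkn1a at 10.65 and measured at 10.78 ± 0.095, a departure of 0.14 (SE 0.052, adjusted p = 0.502). The size of a departure depends on the share: with the share lower or higher by 0.1, that of Ccnd2 was 0.0087 or 0.26. For Ccnd1, Cdk4 and Btg2 the lower share gave 0.019, 0.017 and 0.0048, while for Cdkn1a departures ran from 0.083 to 0.18 over its alternatives. No member passed under any alternative run. The count of 47 genes above the prediction was 25 and 24 without neuron replicates 2 and 3, 30 and 18 without precursor replicates 1 and 2, and 10, 9 and 16 without co-culture replicates 1 to 3. The 4 genes below it were 0 to 2 without any 1 array. No member lay outside both separate cultures either (0 at an unadjusted one-sided p under 0.05, limma), beside 0% of all tested genes in each direction and 141 above and 127 below at an unadjusted p under 0.05.

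**Figure D4:**
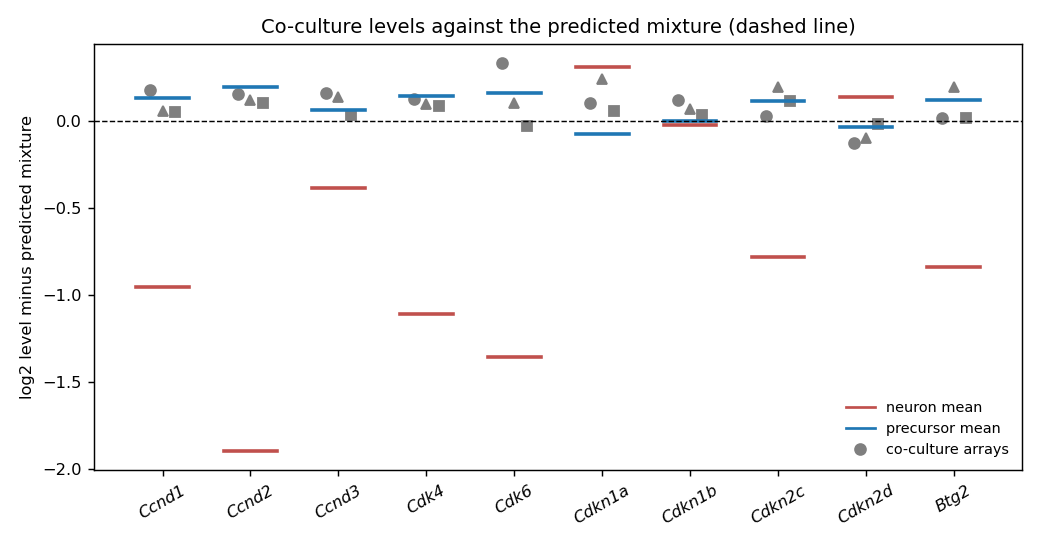
Log2 level minus the predicted mixture (y axis) for each gene: co-culture arrays as grey symbols for replicates 1 to 3, neuron and precursor means as bars, and the prediction as the dashed line. The co-culture means lie between -0.08 and 0.14 of the prediction, and near the precursor mean for every gene with a large difference between the separate cultures.

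Other genes of the pathway were counted from fixed lists, beside 35.2% lower and 28% higher in neurons among all tested genes. Downstream of the D cyclins, 16 of 17 genes of the RB family and E2F group were lower in neurons, with a median log2 difference of -0.89 beside -0.02 for all tested genes. Rbl1 (p107), an RB relative, was 5.62-fold lower, the repressor E2f8 5.34-fold and Foxm1, a factor for mitotic genes, 3.93-fold. Rbl2 (p130), the RB relative linked to quiescence, was not among them (0.20, adjusted p = 0.125). All 15 measured E2F targets of S phase entry were lower, with a median of -2.08, including the helicase subunits Mcm5 (6.09-fold), Mcm7 (5.51-fold) and Mcm3 (5.37-fold). Later cyclins and CDKs were lower in 11 of 11 cases (median -1.64), led by Ccna2 (7.09-fold), Cdk1 (6.54-fold) and Cdk2 (5.4-fold). None of these 43 genes passed between the co-culture and precursors, beside 8.42% of all tested genes in either direction and 0.2% lower. With so few genes lower at all, this count cannot show that the lists were unchanged. The medians were -0.08, -0.13 and -0.10 in that order. At an unadjusted p under 0.05 limma gave 5 lower and 0 higher.

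Other inhibitors and antiproliferative genes were mixed: 7 of 14 were lower in neurons and 3 higher, beside 35.2% and 28% of all tested genes. Gas1, a growth arrest gene, was 3.62-fold lower, the phosphatase Cdkn3 2.08-fold and Gadd45g 1.98-fold, while the Btg relatives Tob1 (0.45) and Tob2 (0.15) and Trp53inp2 (0.61) were higher. Trp53inp2 was also higher in the co-culture than in precursors (0.19, adjusted p = 0.0267, limma), but did not depart from the predicted mixture (0.07, adjusted p = 0.692). Cdkn1a is a standard p53 target. Of 13 tested genes in the p53 list 2 were higher in neurons, Plk2 (0.42) and Perp (0.34). Another 5 were lower, beside 28% higher and 35.2% lower among all tested genes. The lower ones were led by Sesn2 (2.34-fold), Trp53inp1 (2.33-fold) and Gtse1 (1.78-fold). None of the 13 passed in the co-culture against precursors (1 higher and 1 lower at an unadjusted p under 0.05, limma), beside 8.42% of all tested genes. The part of p53 in the Cdkn1a level was not tested. In the list for turnover of D cyclins and p27, Skp2, the ubiquitin ligase subunit that targets p27, was 3.18-fold lower in neurons. Usp2, a deubiquitinase of cyclin D1, was 2.50-fold higher, and Fbxo31, a ligase subunit for cyclin D1, was 1.68-fold higher. Of 10 tested genes in that list 3 were lower and 2 higher, beside 35.2% and 28% of all tested genes. Usp2 was higher in the co-culture than in precursors (0.51, adjusted p = 0.00104, limma), but did not depart from the predicted mixture (0.19, adjusted p = 0.358).

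Listed upstream were MYC genes and genes that respond to ERK, the kinase through which many growth factors raise Ccnd1. Of 18 tested genes 11 were lower in neurons and 7 higher (median -0.53), beside 35.2% lower and 28% higher among all tested genes. Dusp4, Dusp6, Spry1, Spry2, Spry4, Spred1, Etv1, Etv4 and Etv5 were all lower (-1.56 for Dusp4 to -0.54 for Spry2), as were Egr1 and Jun. The 7 higher genes were Fos, Fosl2, Junb, Ets2, Myc, Mycn and Mycl. Dusp4, an ERK phosphatase, was 2.95-fold lower, and the activity-dependent Fos and Fosl2 were 2.6-fold and 2.48-fold higher. The part of ERK in the Ccnd1 level was not tested. Fos (0.74, adjusted p = 1.83e-05) and Fosl2 (0.66, adjusted p = 0.000114) were higher in the co-culture than in precursors (limma). Both also lay above the predicted mixture, Fos by 0.40 (adjusted p = 0.0077, limma) and Fosl2 by 0.34 (adjusted p = 0.0352), sizes that depend on the neuron share. The neuron markers Necab1 (0.85, adjusted p = 0.000123), Vsnl1 (0.59, 0.0123) and Mapt (0.21, 0.0413) passed the same test. All 10 neuron markers lay above 0. These departures are thus not particular to Fos and Fosl2. Myc, a factor that binds E-boxes, was higher in neurons by 0.23 on the log2 scale (adjusted p = 0.00109, limma), and its relatives Mycn by 0.26 and Mycl by 0.22.

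**Figure D5:**
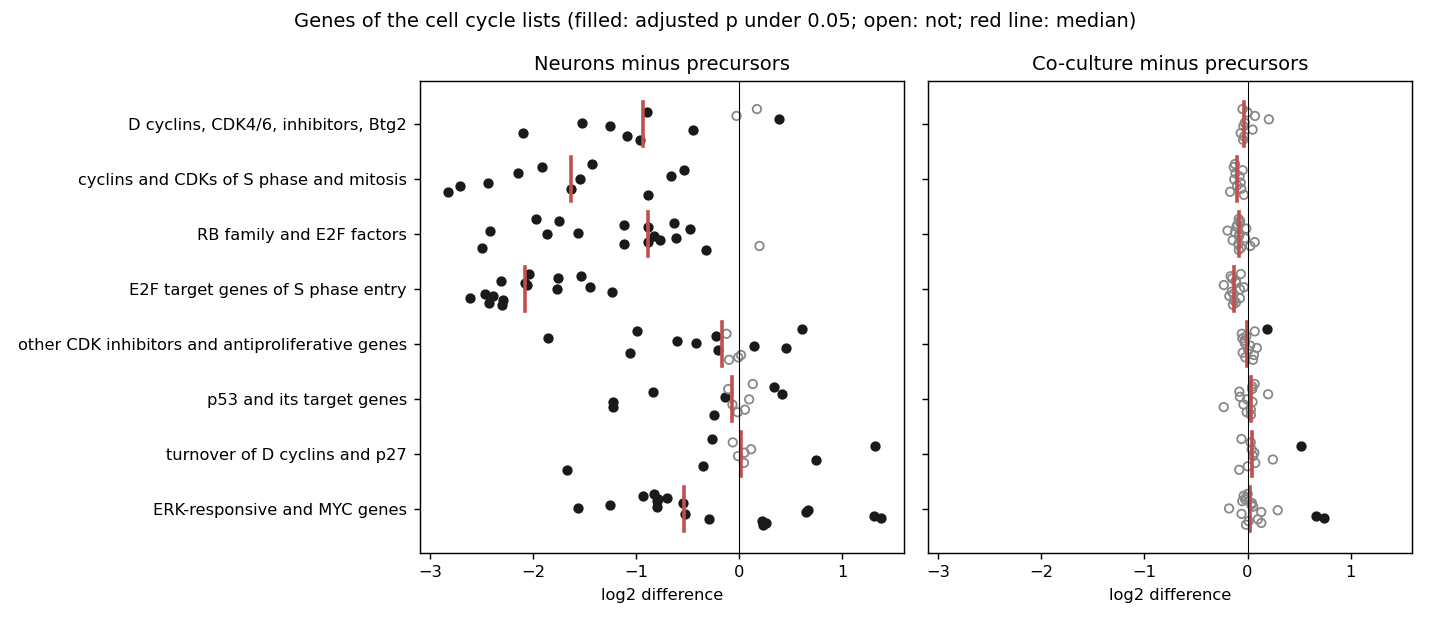
Log2 differences (x axis) of the tested genes of each list in neurons (left) and in the co-culture (right) from precursors; filled points passed at adjusted p under 0.05 and red lines are medians. The lists of S phase and mitosis lie to the left in neurons, with medians of -2.08 and -1.64. In the co-culture the medians of all lists lie near 0, while Fos (0.74), Fosl2 (0.66), Usp2 (0.51) and Trp53inp2 (0.19) passed as higher.

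Profiles over the 9 arrays, after subtracting each gene's mean, were compared among all 13012 tested genes by Euclidean distance. Ccnd2 was nearest to Rrm1, a subunit of ribonucleotide reductase (distance 0.23), Clic1 (0.24) and the mitotic kinase Aurka (0.30). For Ccnd1 the nearest genes were Ckap2 (0.17), Ddx18 (0.20) and Rras (0.23), for Cdk4 Dnajc9 (0.11), Ptbp1 (0.12) and Polq (0.14), and for Cdk6 Mtap (0.28), Dsn1 (0.31) and Samd5 (0.31). Ccnd3 was nearest to Clcn5 (0.097), Scamp2 (0.11) and Park7 (0.11). Btg2 was nearest to Psph (0.14), Snap23 (0.15) and Zfp516 (0.16), and Cdkn2c to H4f16 (0.12), a histone gene with near-identical copies, Mpp5 (0.21) and Sin3a (0.22). Cdkn1a, the gene higher in neurons, was nearest to Slc24a2 (0.12), Vash2 (0.13) and R3hdm4 (0.14). Cdkn1b and Cdkn2d, which did not pass between neurons and precursors, were nearest to Tmem183a (0.058) and 9930012K11Rik (0.14). Members were not each other's closest profiles: 88 genes were nearer to Ccnd1 than Cdk4, the member nearest to it, and 205 were nearer to Cdkn2c than Btg2.

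Some genes listed as markers of other cells were higher in the precursor cultures. The log2 of the summed level of 6 astrocyte markers was 10.01 to 10.25 in neurons and 11.24 to 11.33 in precursors, that of 9 microglia and macrophage markers 9.97 to 10.14 and 10.23 to 10.40, and that of 6 endothelial markers 8.93 to 9.02 and 9.56 to 9.66. The astrocyte sum rested on Aldoc and Gja1, which were lower in neurons (-1.78 and -1.18), while Aldh1l1 was higher there (0.33, adjusted p = 0.0138, limma) and Gfap, Aqp4 and S100b were too dim to test. Of 6 tested microglia and macrophage genes, Fcer1g (-1.01) and Tyrobp (-0.38) were lower in neurons, Aif1 was higher (0.41, adjusted p = 0.00102, limma) and 3 did not pass. All 3 tested endothelial genes were lower. Aqp4, S100b, Ptprc, Itgam, Cldn5 and Tek lay below the array median on every array. The sums of interneuron markers (11.94 to 12.03 and 12.01 to 12.34), oligodendrocyte lineage markers (9.76 to 9.84 and 9.67 to 9.84) and pericyte and fibroblast markers (9.62 to 9.81 and 9.72 to 9.95) overlapped between these cultures. Single genes did differ. Of 6 tested interneuron genes 3 were higher in neurons and 3 lower, led by Dlx2 (-0.80), Lhx6 (0.72) and Gad1 (0.71). Olig2 (-0.30) and Pdgfrb (-0.36) were lower in neurons, and no other tested gene of their lists passed. Whether the listed genes mark such cells in these cultures was not tested, nor was the part of such cells in the members' differences.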

How the data were processed

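The series holds 9 single-sample arrays. Per the submitters' processing notes, the authors ran RMA (oligo package), and the deposited table holds 1 log2 level for each probe set; versions and genome build are not given in the sources used here. RMA summarises probes over all arrays, which can compress folds of dim genes. Precision is limited by the number of arrays.

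Of 41345 probe sets, 23521 had 1 gene symbol, 1814 several and 16010 none; those with 1 symbol were used. Each of 22180 genes was represented by its probe set of highest mean, and the 13012 genes above the array median in at least 3 arrays were tested. All 10 members matched RefSeq by gene number.

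One limma model (version 3.58.1, R 4.3.3; lmFit, eBayes) was fitted to the 3 groups, with two-sided p-values adjusted by Benjamini-Hochberg over all tested genes at a threshold of 0.05. Levels outside both separate cultures used, for each gene, the larger of its 2 one-sided p-values. The error of the neuron share is not part of the test against the mixture. Scripts were tested on simulated data. The members, lists and alternatives were chosen with earlier results of these data known. The text names all members, up to 3 genes per list with the largest difference past the threshold, and the 3 nearest profiles per member (for Cdkn1b and Cdkn2d the nearest). It also names Rbl2, Tob1, Tob2, Plk2, Perp, Myc, Mycn, Mycl, Tubb3, Dcx, Map2 and Mapt, chosen after their values were seen. The other tested ERK-responsive genes are named to complete that list, also after their values were seen.

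Deviations from the group means were correlated between precursor and co-culture arrays of the same number (correlations across genes of 0.34, 0.30 and 0.16), so by the rule that every pair be above 0.1 the replicate numbers pair these 2 groups. They pair neither neurons with precursors (0.0043, 0.13 and -0.15) nor neurons with the co-culture (-0.0051, 0.27 and 0.17).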

Additional observations from a re-analysis of the deposited data

How the results depend on the processing

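Of 40 results for single members, 33 kept their direction and side of the threshold in every alternative run that tested them. Among them were all 8 calls between neurons and precursors. Cdkn2c and Cdkn2d did not meet the filter at the 75th percentile, so that run could not test them. The cause of the other changes was not tested, beyond the smaller number of arrays or genes in some. Uncalled differences turned sign for Cdkn1b between neurons and precursors (0.066 with cyclic loess, -0.062 to 0.0036 leaving out arrays), and, between co-culture and precursors, for Cdk6 (-0.12 to 0.056 leaving out arrays) and Cdkn2c (-0.034 with array weights, -0.062 to 0.074 leaving out arrays). Members higher in the co-culture than in precursors were 1 in place of 0 (Cdkn1a) with the filter at the 75th percentile, cyclic loess, trend and robust eBayes, array weights or the replicate block, the last changing no other member's call. Members lower in the co-culture than in neurons were 1 in place of 2 without the filter or with only 2 groups, and 0 to 2 leaving out arrays. With the stricter filter they were also 1, but there Cdkn2d was not tested. Members higher in neurons than in precursors were 1 to 2 leaving out arrays.

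Genes lower in the co-culture than in precursors (26) were 40 without the filter, 43 with the stricter one, 41 with trend and robust eBayes, 87 with array weights, 42 with the replicate block, 57 with only 2 groups and 7 to 52 leaving out arrays; the higher genes were 676 to 1138. Genes above the predicted mixture (47) were 19, 80, 81, 95 and 25 with the first 5 of these settings, 2 and 571 with the share higher and lower by 0.1, and 9 to 41 leaving out arrays. Those below (4) were 0 without the filter or with cyclic loess, 1 with the stricter filter, 9 with array weights, 2 with the replicate block, 1 and 12 with the share moved, and 0 to 2 leaving out arrays. Genes above both cultures were 1 with the stricter filter and 0 to 1 leaving out arrays. The mean of all probe sets is the main value for these genes, which have 1 each. Few arrays, and dim probe sets such as that of Cdkn2c, limit what can be resolved.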
